A study of Rattus norvegicus with 12 samples.

Results

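Uvrag, Wdr35, Sos2 and Rtn4 are 4 genes that the array used here reads with a pair of probes each, and they were chosen because the difference between chronically stressed and control rats did not look the same at both probes of a gene. The members are thus 8 probes of 4 genes, out of 30367 probes and 26511 gene names on the array. Of the 8 probes, 6 carry the member's name in the name column of the scanner files. The pair for Wdr35 is listed there as Wdr35l, with the accession NM_001099340, which RefSeq now assigns to Wdr35. The genes were selected on the differences between the groups at these probes, so these are given below as a description, with no test.

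The stressed rats went through chronic unpredictable stress (CUS) for 35 days, with 2 stressors per day drawn at random from a set that included swimming, rotation, isolation, crowding and nights without food and water. The controls were unstressed rats that were handled every 2 days, by the labels when weighed. All were male Fisher 344 rats, and each of the 6 CUS and 6 control rats gave 1 array. The RNA came from adipocytes of the epididymal fat pad by the source field of the labels (their extraction text has preadipocytes), and each Cy3-labelled sample was read on its own Agilent gene expression array in 1 colour.

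The Uvrag protein joins Beclin and the class III phosphatidylinositol 3-kinase, a complex that forms autophagosomes and matures endosomes. Wdr35 is a subunit of the intraflagellar transport complex A, which carries proteins back along the cilium and through its base. Sos2 is a guanine nucleotide exchange factor that, bound to the adaptor Grb2, loads Ras with GTP after growth factor or insulin receptors are activated. Rtn4, also known as Nogo, is a reticulon that bends the membrane of the endoplasmic reticulum into tubules. Each gene can make several transcripts that differ in exons or in the end of the message, and a probe reads only those that contain its own 60 bases.

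The probes lie at different distances along their target sequences, as given in the array design by the start of the probe within the target. The one that starts nearer the 5′ end is called the upstream probe and the other the downstream probe. The upstream probes start at base 2074 for Uvrag, 2866 for Wdr35, 3942 for Sos2 and 3414 for Rtn4, and the downstream probes at 3646, 4041, 5293 and 4595 for the same genes. For Wdr35, Sos2 and Rtn4 both probes have the same main target accession, and the order along the target is also the order along the genome. For Uvrag the starts refer to different accessions, ENSRNOT00000022176 for the upstream and NM_001107536 for the downstream probe, and the order in the genome is the reverse, 20389 bases apart. Positions are on the rat genome build rn4, as the array files give them, and no exon or UTR annotation of that build was used here. The whole upstream probes are shown first, 5′ to 3′, because in each gene the difference was the higher one there.
Uvrag upstream, chr1:156174428-156174487, minus strand: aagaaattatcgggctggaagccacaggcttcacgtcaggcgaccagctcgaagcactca
Wdr35 upstream, chr6:32518903-32518962, plus strand: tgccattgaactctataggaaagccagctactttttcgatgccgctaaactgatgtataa
Sos2 upstream, chr6:91610826-91610885, minus strand: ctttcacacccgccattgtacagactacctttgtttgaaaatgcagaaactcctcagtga
Rtn4 upstream, chr14:110768043-110768102, plus strand: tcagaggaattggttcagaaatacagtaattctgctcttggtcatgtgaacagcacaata

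Of the downstream probes the last 30 bases are shown, since the hexamer AATAAA was found there in 2 of the 4 and in no upstream probe. Capitals mark it. AATAAA is the sequence of the polyadenylation signal, which stands shortly before the end of most messenger RNAs. Whether it acts as such a signal at these probes was not tested.
Uvrag downstream, probe at chr1:156194817-156194876, minus strand: aaacagtcctttcgtcctgtttttaaaaaa
Wdr35 downstream, probe at chr6:32520971-32521030, plus strand: acttagagaaccctggggaggtagacggga
Sos2 downstream, probe at chr6:91609475-91609534, minus strand: taacaaggttAATAAAtcacctcagtctta
Rtn4 downstream, probe at chr14:110772513-110772572, plus strand: gaactgtaaaagcaaagtatcAATAAAgct
The hexamer was found in 2 of the 8 probes over their whole 60 bases, the downstream probes of Sos2 and Rtn4, with 14 and 3 bases of probe after it. Of all 30367 probes, 8.39% hold AATAAA. Its reverse complement, TTTATT, was in none of the 8 probes and in 2.86% of all. The Wdr35 downstream probe had a stop codon in every reading frame of its strand. The GC content of the probes was 55.0% at the Uvrag upstream probe and 35.0% to 45.0% at the other 7, against a median of 45.0% over all probes. The longest run that a member probe had in common with a probe of any other gene was 12 to 17 of 60 bases.

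Each array value below is the log2 of the background-corrected intensity minus the 75th percentile of the array, so that a value of 0 is the brightness that 75% of the probes do not exceed. That percentile was an intensity of 541 to 627 on the CUS arrays and 229.6 to 399.8 on the control arrays, the lowest being that of control replicate 3. The share of probes well above background was 64.7% to 67.0% on the CUS arrays and 60.4% to 67.3% on the control arrays. All CUS arrays shared 1 slide and all control arrays a second one, so for every difference below the slide and the group cannot be told apart. Spike-in RNAs differed by -0.05, CUS minus control, without scaling (exact permutation test, two-sided, p = 0.69) and by -0.83 relative to the 75th percentile (p = 0.0022, the smallest the test can give). Relative to the spike-ins the median tested probe was 0.81 higher in CUS, so each scaled difference is relative to the other probes of the array. Adipocyte markers were well above background on all arrays (10 of 10), and 3 of them were called higher and 3 lower, with a summed log2 level of 10.46 to 10.76 in CUS and 10.45 to 11.39 in control. Transcripts of other cells moved with the groups as well. Of 6 measured red blood cell markers, all 6 were called higher in CUS, and their summed log2 level ran from 10.98 to 11.46 on the CUS arrays and from 5.72 to 7.24 on the control arrays. Of 7 mast cell markers, 6 were called higher, with a summed level of 0.60 to 2.06 in CUS and -2.54 to -1.72 in control, and 5 of 5 smooth muscle markers were called lower, at 2.00 to 3.42 in CUS and 2.17 to 5.37 in control. Only 1 of the 7 mast cell markers was well above background on all arrays, and 4 of the 5 smooth muscle markers were. Of 7 endothelial markers 4 were called lower and none higher, at 4.197 to 5.19 in CUS and 4.16 to 6.27 in control, and of 6 macrophage markers 2 were called higher and none lower, at 4.79 to 6.21 in CUS and 3.34 to 5.35 in control. Their part in the members' differences was not tested, and in such bulk samples fewer cells of a type and less RNA per cell cannot be told apart.

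The differences at the pair of probes had opposite signs in 3 of the 4 genes, Uvrag, Wdr35 and Sos2. At Rtn4 both probes were higher in CUS and differed only in size, so the probes of that gene did not disagree in direction. Among all 2118 genes with at least 2 tested probes, 26.8% had differences of opposite sign, and in 63 of the 2114 that are no members (2.98%) 1 probe passed the test as higher and another as lower. Opposite calls of at least 2-fold each occurred in 4 genes (0.189%). In all 4 members, chosen on these differences, the upstream probe had the higher difference, and in all 4 it was the dimmer of the pair. By genome order, however, the upstream probe of Uvrag is the 3′ one. Among 1639 other genes ordered along the genome, the 5′ probe had the higher difference in 61.1% and was the dimmer one in 78.2%. Of all tested probes, 24.7% were called higher and 25.3% lower in CUS. The 2 groups did not overlap at 5 of the 8 member probes, where 21.8% of all 19729 tested probes had no overlap. As the members were chosen on these differences, nothing is read from that count. One of the 5, the Uvrag upstream probe, was well above background on 6 CUS arrays but only 3 control arrays.

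The Uvrag upstream probe, which reads the Ensembl transcript, was near the limit of detection. It had a lowest, median and highest log2 signal of -4.48, -4.22 and -3.96 in CUS and -6.00, -5.10 and -4.89 in control. All 6 CUS arrays were above all 6 control arrays, and the mean was -4.21 ± 0.18 in CUS and -5.21 ± 0.42 in control (SD, n = 6 each), a difference of 1.00 (SE 0.18). In unscaled intensities the CUS arrays held 28.1 to 34.9 and the control arrays 3.58 to 13.5, and the probe was well above background on 6 of 6 CUS and 3 of 6 control arrays. Its 2 spots on an array differed by a median of 0.47 and at most 1.21 on the log2 scale.

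The Uvrag downstream probe, which reads the RefSeq transcript, went the other way. Its lowest, median and highest log2 signals were -3.96, -3.61 and -3.17 in CUS and -2.14, -1.47 and -0.99 in control. Every CUS array was below every control array, with means of -3.63 ± 0.28 in CUS and -1.50 ± 0.38 in control (SD, n = 6 each) and a difference of -2.13 (SE 0.18), a 4.38-fold lower level. In intensity the ranges were 34.8 to 64.9 in CUS and 52.2 to 153.0 in control and overlapped, the 52.2 being that of control replicate 3. In CUS the Uvrag probes lay closer together than in control, with an upstream minus downstream level of -0.58 ± 0.36 on the log2 scale (SD, n = 6), while in control it was -3.71 ± 0.29 (SD, n = 6).

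The Wdr35 upstream probe was likewise dim. Its lowest, median and highest log2 signals were -4.32, -4.00 and -3.66 in CUS and -5.56, -4.76 and -3.98 in control, so that the groups overlapped and 3 of 6 CUS arrays exceeded every control array. The mean was -4.01 ± 0.28 in CUS and -4.77 ± 0.52 in control (SD, n = 6 each), a difference of 0.76 (SE 0.22). Intensities were 27.1 to 49.8 in CUS and 6.44 to 15.4 in control, and the probe was well above background on 6 of 6 CUS and 3 of 6 control arrays.

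The Wdr35 downstream probe was brighter than 64.4% of tested probes. It ran at -1.04, -0.88 and -0.67 in CUS (lowest, median, highest) and at 0.91, 1.45 and 1.84 in control. All CUS arrays were below all control arrays, at -0.86 ± 0.13 in CUS and 1.38 ± 0.33 in control (SD, n = 6 each), a difference of -2.23 (SE 0.14) or 4.71-fold. The groups were also apart without scaling, at unscaled intensities of 285 to 341 in CUS and 749 to 997 in control.

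The Sos2 upstream probe had the largest rise of the 8. Its lowest, median and highest log2 signals were 0.42, 1.00 and 1.55 in CUS and -1.50, -1.38 and -1.27 in control. No CUS array overlapped a control array, and the CUS arrays were spread over a wider range, with a mean of 0.99 ± 0.42 in CUS and -1.38 ± 0.08 in control (SD, n = 6 each). The difference was 2.37 (SE 0.17), a 5.17-fold higher level, and intensities were 725 to 1588 in CUS and 80.9 to 149 in control.

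The Sos2 downstream probe, which holds the hexamer AATAAA, differed little. It gave 0.94, 1.14 and 1.48 in CUS (lowest, median, highest) and 1.36, 1.53 and 1.83 in control. The groups overlapped, with 4 of 6 CUS arrays below every control array, at means of 1.19 ± 0.24 in CUS and 1.56 ± 0.18 in control (SD, n = 6 each) and a difference of -0.37 (SE 0.12). In unscaled intensities the order was turned, with a median of 1299 in CUS and 992 in control. The level of the upstream relative to the downstream probe was -0.21 ± 0.56 in CUS and -2.94 ± 0.17 in control (SD, n = 6 each).

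At Rtn4 the upstream probe gave 1.78, 2.09 and 2.31 in CUS (lowest, median, highest) and -0.23, 0.80 and 1.61 in control. The groups did not overlap, although control replicate 3, at 1.61, and control replicate 1, at -0.23, lay far apart. The mean was 2.05 ± 0.21 in CUS and 0.76 ± 0.59 in control (SD, n = 6 each), a difference of 1.29 (SE 0.24). The downstream probe was among the brightest on the array, brighter than 97.0% of tested probes, and gave 5.68, 5.93 and 6.05 in CUS and 5.40, 5.54 and 5.97 in control. There 1 of 6 CUS arrays exceeded every control array, and the difference was 0.27 (SE 0.11), with means of 5.88 ± 0.14 in CUS and 5.61 ± 0.20 in control (SD, n = 6 each). In unscaled intensities the groups did not overlap at either Rtn4 probe. The upstream probe held 1864.6 to 3107.3 in CUS and 259.6 to 766.3 in control. The downstream probe held 28760.5 to 41658.2 in CUS and 12839.5 to 18821.4 in control. None of the 8 probes was saturated on any array.

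**Figure D1:**
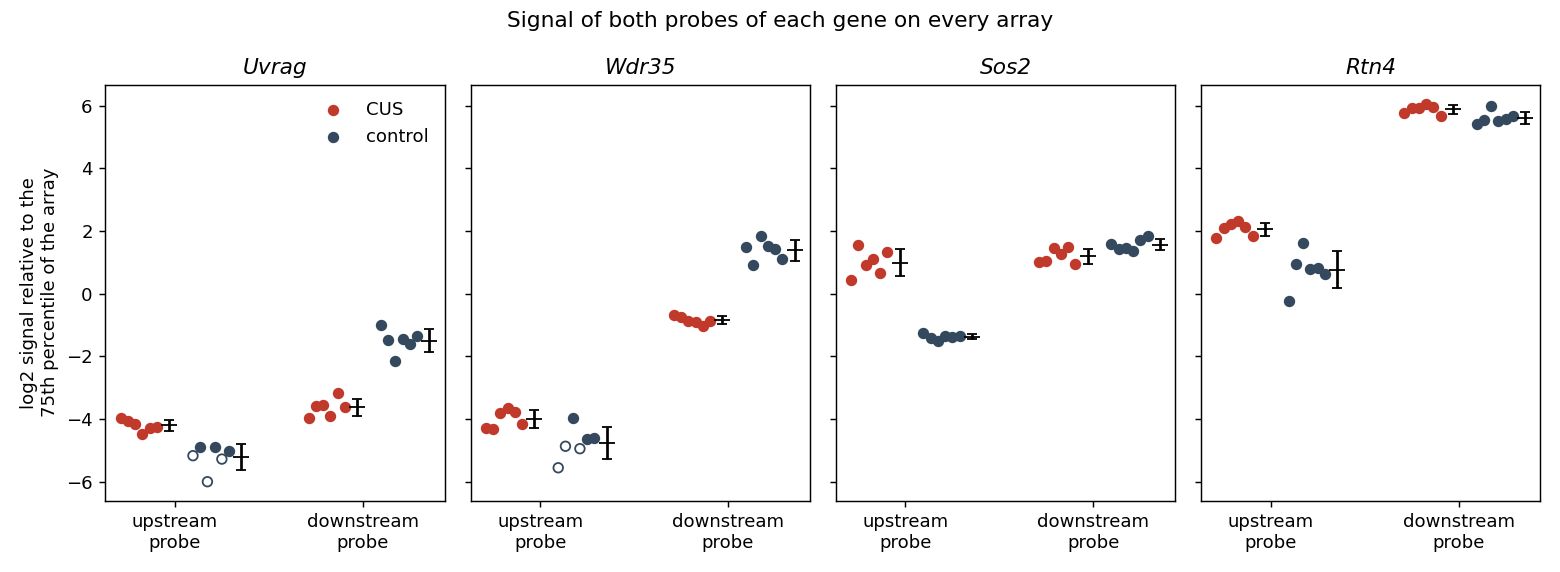
Log2 signal relative to the 75th percentile of the array (vertical axis) of the upstream and downstream probe of each gene, with 1 point per array, CUS in red and control in dark blue, open points where the probe was not well above background, and bars for the mean and SD of 6 arrays. At Uvrag and Wdr35 all CUS points sit below control at the downstream probe, while at the upstream probe they sit above control for Uvrag and are higher on average, with overlap, for Wdr35. At Sos2 the group means differ by 2.37 at the upstream probe, where the points do not overlap, while at the downstream probe they do. At Rtn4 CUS is higher on average at both.

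Which genes showed opposite signs depended on the processing. With normexp background correction, which adds 50 to each intensity before the logarithm, the dim upstream probes of Uvrag and Wdr35 came out lower in CUS (-0.34 and -0.22) and only Sos2 kept opposite signs. With spike-in scaling or no scaling between arrays the Sos2 downstream probe was higher in CUS (0.46 and 0.41), and Uvrag and Wdr35 kept opposite signs. Over 20 settings, which were the one reported, 7 other ways of processing and the omission of each of 12 arrays, the signs were opposite in 19 for Uvrag, 19 for Wdr35, 18 for Sos2 and 0 for Rtn4. The gap between the probes of a gene, upstream minus downstream difference, is not touched by a scaling of whole arrays. Over the 20 settings the gap ran at 1.13 to 3.41 for Uvrag, 1.77 to 3.44 for Wdr35, 2.26 to 2.86 for Sos2 and 0.86 to 1.12 for Rtn4. The settings share the same arrays, and several leave the gap unchanged by construction. As the genes were chosen on these differences, the signs and gaps describe the processing and give no further support.

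**Figure D2:**
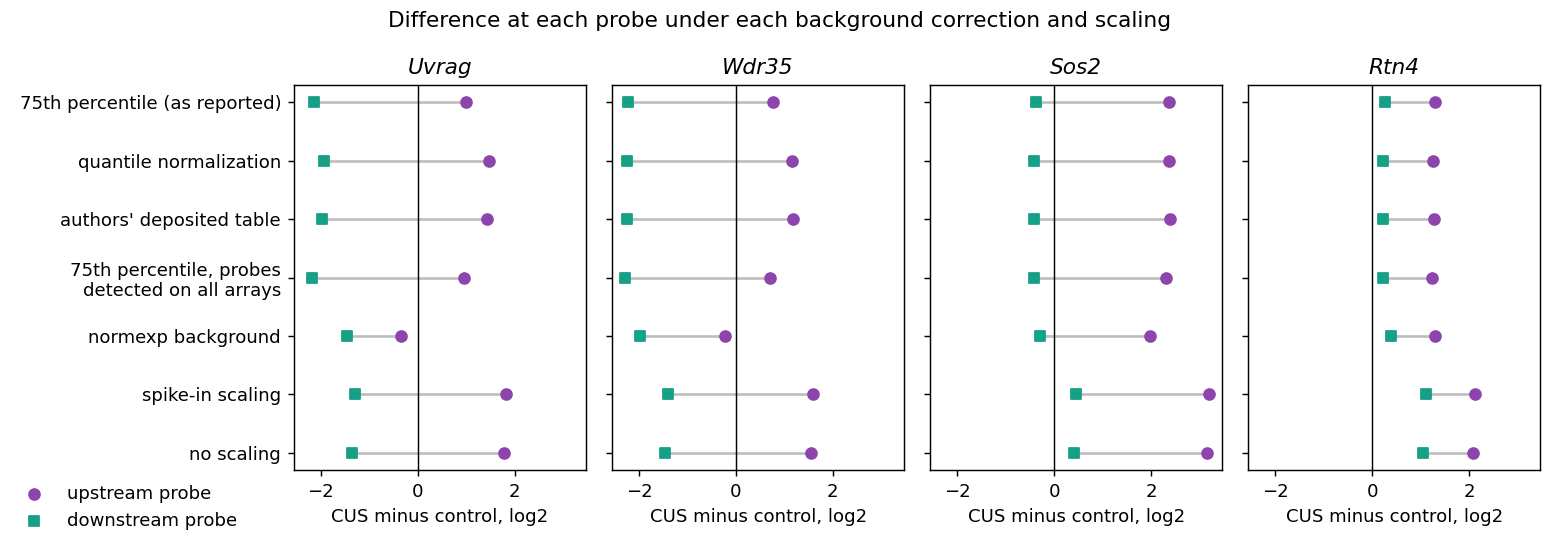
Difference between CUS and control (horizontal axis, log2) at the upstream probe (circle) and the downstream probe (square) of each gene under 7 ways of processing (rows). In every row the circle lies to the right of the square, while the side of 0 on which the upstream probes of Uvrag and Wdr35 and the downstream probe of Sos2 lie changes between rows.

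Brightness moved with the differences. Over all tested probes the median difference was -0.43 in the dimmest 10% of probes, where 32.0% of probes were higher in CUS, and 0.10 in the brightest 10%, where 65.1% were. The Uvrag upstream probe lay in the dimmest decile and the Wdr35 upstream probe in the next, and as both were well above background on only 3 of 6 control arrays, their differences are not ranked here. The ranks of the others describe values that chose the members. The Sos2 and Rtn4 upstream probes exceeded 99.6% and 99.1% of the probes in their deciles. The Uvrag and Wdr35 downstream probes lay below all but 0.56% and 0.10% of theirs, whereas the downstream probes of Sos2 and Rtn4 stood inside the middle range, above 17.3% and 72.0%.

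**Figure D3:**
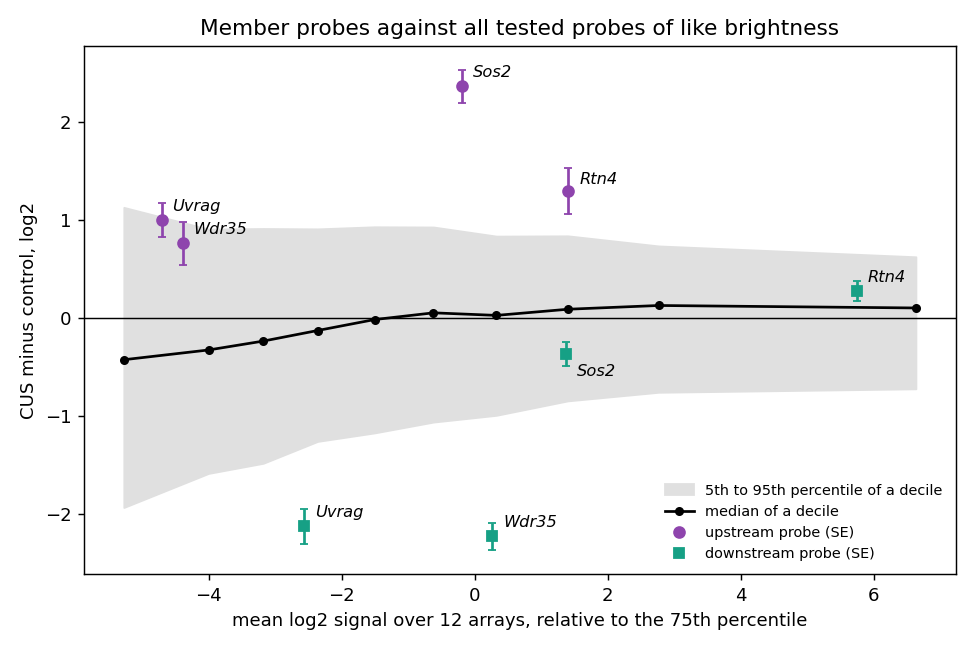
Difference between CUS and control (vertical axis, log2) against mean log2 signal over 12 arrays (horizontal axis), with the median (line) and the 5th to 95th percentile (grey) of each decile of the 19729 tested probes and the 8 member probes with their SE. The Uvrag and Wdr35 downstream probes, at -2.13 and -2.23, lie below the grey band, the Sos2 and Rtn4 upstream probes, at 2.37 and 1.29, above it, and the other 4 within or at its edge.

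Whether the place of a probe along the transcript goes with its difference was then asked of other genes, since the members were chosen for theirs. There were 1639 other genes with tested probes on 1 chromosome and strand whose outermost probes lie 500 bases to 500 kb apart, and their probes were ordered along the genome. The 5′ probe was the dimmer one in 78.2% of them, and the median signal of the 5′ minus the 3′ probe, taken over genes on each array, was -2.01 ± 0.05 in CUS and -2.09 ± 0.07 in control (SD, n = 6 each). The CUS arrays lay at -2.10 to -1.96 and the control arrays at -2.20 to -2.01 and overlapped, and the difference of 0.08 did not pass (exact permutation test, two-sided, p = 0.061). It was 0.22 with quantile normalization (exact permutation test, p = 0.0022) and had the opposite sign, at -0.11, with normexp background correction (exact permutation test, p = 0.0498), so its direction depends on the processing. Among pairs of like brightness that were well above background on all arrays (283 genes, chosen after the data were seen) it was 0.06 (exact permutation test, p = 0.22).

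The members, picked for their gaps, were set beside these genes. The 5′ probe had the higher difference in 61.1% of the other genes, with a median gap of 0.11 and a 5th to 95th percentile of -0.91 to 0.87. A gap as wide as that of Sos2 in either direction was found in 6 of 1639 genes and as wide as that of Rtn4 in 123. The gaps of Uvrag and Wdr35 are not ranked, since their upstream probes were well above background on only 3 of 6 control arrays. By genome order Wdr35, Sos2 and Rtn4 had the higher difference at the 5′ probe and Uvrag at the 3′ probe. Of the 49 other genes whose outermost probes were called in opposite directions (2.99%), the 5′ probe was the higher one in 27, that is 55.1%, and it was both higher and dimmer in 36.7%, against 50.8% of all 1639.

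**Figure D4:**
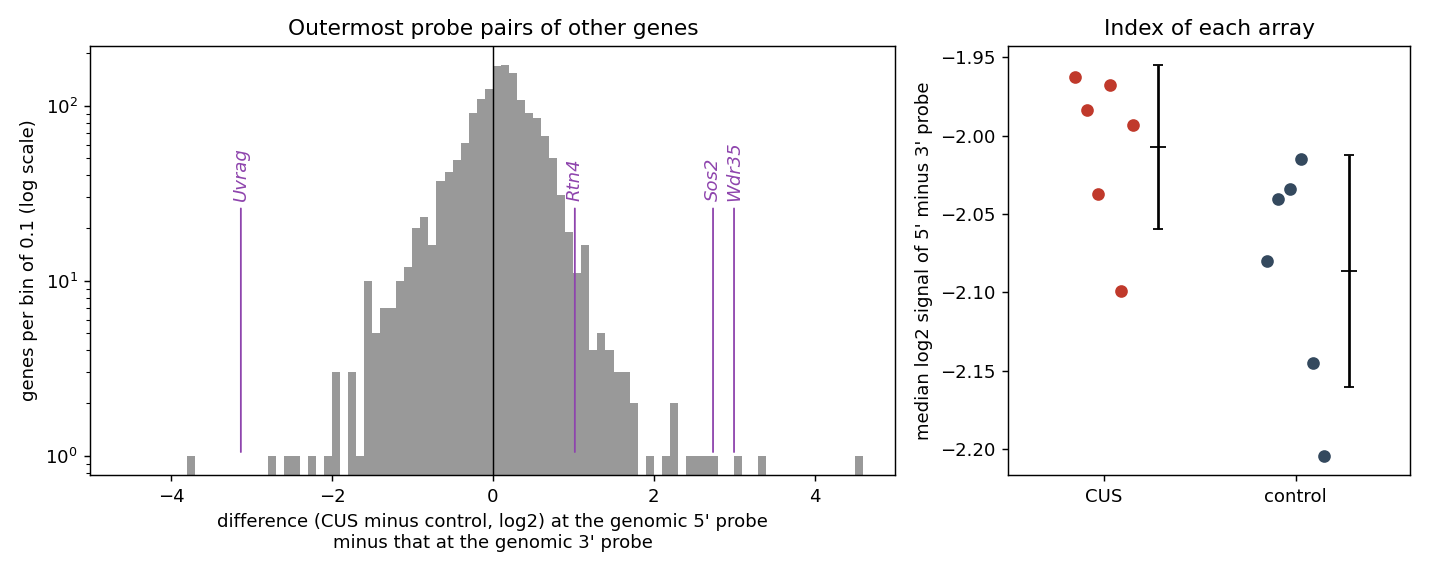
Left, number of other genes (vertical log axis) by the difference at the 5′ probe minus that at the 3′ probe (horizontal axis, log2, genome order), with the 4 members marked. Right, the median 5′ minus 3′ log2 signal over these 1639 genes on each CUS and control array, with mean and SD, where CUS averages -2.01 and control -2.09 and the arrays overlap.

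The probes also differed in the transcripts they are listed for. The Rtn4 probes share 4 of 4 accessions, the Sos2 probes 2 of 4 each, and the Wdr35 probes 1, out of 4 upstream and 3 downstream. The Uvrag probes share none of 2 and 2. Among the 49 other genes with opposite calls, 18.4% had no accession in common, against 7.80% of the remaining pairs, and 18.4% had all in common, against 17.5%. No probe of another gene lay within the span of any member's probes. Within 10 kb, the transcript TC610581 is read 1343 bases past the Wdr35 probes on the other strand, with a difference of 0.23, and RGD1306228 lies 6408 bases past the Sos2 probes on the same strand, with 0.09, while the Eml6 probe near Rtn4 was well above background on none of 12 arrays.

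Within a group, the probes of a gene could be compared in 6 cases with enough signal. At Rtn4 their correlation over the 6 CUS arrays was the highest (Pearson r = 0.94, exact permutation p = 0.015, adjusted over 6 tests p = 0.092, Spearman rho = 0.77, p = 0.10, and r = 0.77 without the 2 arrays farthest from the median). Over the 6 control arrays r was 0.83 (exact permutation p = 0.065, adjusted p = 0.13, Spearman rho = 0.60, p = 0.24), and it was -0.80 without the 2 farthest arrays, so that it rests on those. At Wdr35 the correlation in CUS had a negative sign, with r = -0.78 (exact permutation p = 0.058, adjusted p = 0.13, Spearman rho = -0.83, p = 0.058, and r = -0.82 without the 2 farthest). The Uvrag probes in CUS had r = -0.17 (exact permutation p = 0.77, rho = -0.26, p = 0.66, and r = -0.56 without the 2 farthest). The Sos2 probes had r = -0.37 in CUS (exact permutation p = 0.43, rho = -0.31, p = 0.56, and r = -0.93 without the 2 farthest) and r = 0.40 in control (exact permutation p = 0.44, rho = 0.37, p = 0.50, and r = 0.59 without the 2 farthest). For these 3 the adjusted p of r was 0.53 to 0.77, and over all 6 that of rho was 0.31 to 0.66. No correlation passed after adjustment, and 2 passed without scaling, where the common brightness of an array is part of both values.

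The genes that most resembled each probe, after the group means were taken out, were different for the 2 probes of a gene. Over 12 arrays the Sos2 upstream probe was most like Ahsp, which encodes the stabilizing protein of alpha haemoglobin in red blood cells (r = 0.94), and Fbxl15 (r = 0.94). Ahsp is also one of the 6 red blood cell markers that were all called higher in CUS, and the part of red blood cell transcripts in the Sos2 values was not tested. The Sos2 downstream probe was most like Chd6 (r = 0.92), a chromatin remodeller, and Bbs4 (r = 0.91), a subunit of the ciliary BBSome. The Uvrag upstream probe followed a pair of probes of Wt1, a transcription factor of mesothelium and kidney (r = 0.96 and 0.95, and 0.88 and 0.86 without control replicate 3). The Wt1 probes themselves had differences of -0.20 and -0.36, CUS minus control, of the opposite sign to the Uvrag upstream probe. Both measured mesothelial markers were called higher, with a summed log2 level of 2.76 to 3.51 in CUS and 0.11 to 3.11 in control, and their part in the Uvrag values was not tested. Only 1 of these 2 markers was well above background on all arrays. The Uvrag downstream probe followed Eid3 (r = 0.90) and Akap8 (r = 0.86, and 0.77 without control replicate 3). The Wdr35 upstream probe was most like Tmem33 and Entr1 (r = 0.96 each) and the downstream probe like Grm2 (r = 0.92) and a probe of Rtn4rl1 (r = 0.90), a Nogo receptor homologue. The Rtn4 upstream probe was most like Etfbkmt (r = 0.99) and Bet1 (r = 0.99), and the downstream probe like Hmgn3 (r = 0.98) and Mme (r = 0.98). These coefficients were the highest of all named genes and carry no test.

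Genes that work with each member were read at their brightest tested probe, among 17411 genes of which 50% were called, 24.2% as higher and 25.8% as lower in CUS (limma, adjusted p of 0.05). The median difference of all these genes was -0.03. Of 20 genes of the Uvrag complex and its autophagy and tethering partners, 13 were higher, none was lower and 7 did not pass, with a median difference of 0.32. With normexp 8 were higher (median 0.03), with spike-in scaling all 20, and without CUS replicate 2 or without control replicate 2 there were 8. Of all 19729 tested probes, spike-in scaling called 12873 higher and 490 lower, and normexp 4441 higher and 8864 lower. The counts of these settings, here and in the lists below, are to be read beside those shares. Vps41, a subunit of the HOPS tethering complex, had the largest rise of them, at -0.52 ± 0.32 in CUS and -1.36 ± 0.44 in control (SD, n = 6 each), a difference of 0.84 (limma adjusted p = 0.0051). Vps16, of the same complex, was higher by 0.78 (adjusted p = 0.00024) and Atg12, a ubiquitin-like protein of autophagosome growth, by 0.74 (adjusted p = 0.00078), and both lost the rise with normexp (-0.01 and -0.03). Rubcn, which binds Uvrag and restrains the complex, had opposite calls of its own. Its brighter probe was higher by 0.61 (adjusted p = 0.046), a call that the omission of any of 9 arrays ended (adjusted p up to 0.077), as did the replicate block (adjusted p = 0.061), and its dimmer probe was lower by 1.04 in CUS (log2 difference -1.04, adjusted p = 0.00014). The call at the dimmer probe was lost with spike-in scaling (-0.21, adjusted p = 0.41) and with no scaling (-0.27, adjusted p = 0.11). That probe was dim, with a mean of -5.03 in CUS and -3.99 in control, and has no genome position. It starts at base 2105 of its target and the brighter probe at 4260. By start, the upstream probe of Rubcn was thus the lower one, unlike in the members.

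Of 15 genes of ciliary transport listed with Wdr35, 8 were tested, of which 4 were higher, none was lower and 4 did not pass (median 0.31). With normexp 3 were higher and 1 was lower, with spike-in scaling all 8 were higher, and without CUS replicate 3 or without CUS replicate 4 only 2 were. Dync2li1, the light intermediate chain of the dynein that carries the complex, was higher by 1.10 (limma adjusted p = 0.00049) and by 0.55 with normexp. Ift57, of complex B, was higher by 0.56 (adjusted p = 0.0034) and Kif3a, a kinesin motor, by 0.47 (adjusted p = 0.024). The Kif3a call was lost without CUS replicate 3 (adjusted p = 0.053), without CUS replicate 4 (adjusted p = 0.054) and with normexp (0.26, adjusted p = 0.079). Among subunits of complex A that were tested, Ift122 had a difference of 0.01 and Ift43 of 0.34, and neither passed.

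Of 22 Ras pathway genes listed with Sos2, 19 were tested, 4 were higher, 1 was lower and 14 did not pass (median 0.02), whereas with normexp 3 were higher and 5 lower and with spike-in scaling 15 were higher and none was lower. Without CUS replicate 4 or without control replicate 4 only 2 were higher, and the omission of any of 8 arrays ended the 1 lower call. The kinase Map2k1, at 0.48 (limma adjusted p = 0.0017), was higher, as was the docking protein Gab1, at 0.33 (adjusted p = 0.037). The omission of any of 7 arrays ended the Gab1 call (adjusted p up to 0.083), and with normexp Gab1 was lower by 0.37 (log2 difference -0.37, adjusted p = 0.0041). The paralog Sos1 had differences of -0.11 (adjusted p = 0.35) and 0.07 (adjusted p = 0.66) at its brighter and dimmer probe, and neither passed. The probes of the adaptor Grb2 differed, with 0.07 at the brighter one (adjusted p = 0.51) and a call as higher by 0.69 at the dimmer one (adjusted p = 0.0012). Shc1 went the other way, with -0.22 at its brighter probe (adjusted p = 0.092) and a lower call at the dimmer one (difference -0.55, adjusted p = 0.0014). Araf had 0.31 at its brightest probe (adjusted p = 0.023) and 0.52 (adjusted p = 0.00081), 0.34 (adjusted p = 0.0086) and -0.08 (adjusted p = 0.52) at its other probes.

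Of 18 reticulons, Nogo receptors and endoplasmic reticulum shaping genes listed with Rtn4, 16 were tested, 6 were lower, 5 higher and 5 short of the threshold (median -0.24). With normexp 10 were lower and 5 higher, and with spike-in scaling 9 were higher and none was lower. The reticulons differed among themselves. Rtn1 was lower, at 1.89 ± 0.38 in CUS and 2.84 ± 0.73 in control (SD, n = 6 each), a difference of -0.95 (limma adjusted p = 0.021), and Rtn2 was lower as well (difference -0.83, adjusted p = 0.0015), but Rtn3 was higher by 0.73 at its brightest probe (adjusted p = 0.00070), with 0.45 (adjusted p = 0.0015) and 0.16 (adjusted p = 0.22) at its other probes. Rtn4rl1 was lower at its brighter probe (difference -0.87, adjusted p = 0.021) and also at its dimmer one (difference -2.46, adjusted p = 2.2e-06). Under spike-in scaling Rtn1, Rtn2 and the brighter Rtn4rl1 probe no longer passed (-0.13, 0.00 and -0.04).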

How the data were processed

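Adipocyte RNA of 6 CUS and 6 control rats was measured on 12 arrays, grouped as labelled. The authors deposited scanner files. By their headers, the spot intensities were made with Agilent Feature Extraction 10.7.3.1, which had taken off the background and spatial trends and given signals at or below background a surrogate value. Background levels and detection flags come from the same files, and the start of each probe is a value deposited with the array design. The authors' value table holds quantile normalized intensities on a linear scale and served as an alternative. An exon array is named in the paper, but the deposited design is that of a gene expression array.

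Of 62976 spots per array, 58717 are non-control spots. Outlier spots were left out, the log2 intensities of a probe were averaged and the 75th percentile of the array was subtracted. Probes that were well above background on 6 or more of the 12 arrays (19729) entered a limma fit (limma 3.58.1, R 4.3.3), two-sided, with adjustment by Benjamini-Hochberg across these probes and a threshold of 0.05. Probes were named through RefSeq by accession (17514), symbol (2669) or synonym (689), and otherwise kept the file's name (9495). The members and lists were chosen with earlier results of these data known, and the members' group differences got no test. From each list the 3 called genes of largest change were named, with any gene of opposite calls, except 1 gene that is not reported here. Ift122, Ift43, Sos1, Grb2, Shc1, Araf and Rtn3 are not covered by that rule and were added with their values known. Correlations used exact permutation tests over 6 arrays, for probes well above background on at least 4. Alternatives to background correction, scaling, filter, variance model, test, blocking and array set were tried. On simulated data 30 of 81 probes changed by 0.5, 48 of 56 changed by 1 and 63 of 63 changed by 2 on the log2 scale were called, with 7 false calls among 19729 probes. That simulation had independent normal noise, few changed probes and no slide effect. In the real data 50% of tested probes were called and slide coincides with group, so its counts give neither the power nor the false calls there. Python 3.11.15, pandas 2.3.3, NumPy 2.4.6 and SciPy 1.17.1 prepared the tables. The number of arrays limits the precision of each value.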

Additional observations from a re-analysis of the deposited data

Results flagged for a closer look

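In 26 sets of 6 arrays examined for a sample far from the others (8 probes, 4 probe gaps and the position index, each in CUS and control), 1 was found, where chance gives about 1 in 20. The Uvrag upstream probe had a log2 signal of -6.00 on control replicate 3, against -5.28 to -4.89 on the other 5 control arrays. The probe was not well above background there, and this array also had the lowest 75th percentile of intensity of the 12, at 229.6. The intensity of the probe on that array was 3.58, where the negative control spots of the array had a median of 2.55. Over all arrays 2 spots of the probe held a surrogate value, and no spot of the other member probes did. Without control replicate 3 the difference at this probe was 0.84 in place of 1.00. The cause was not tested.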

How the results depend on the processing

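The number of the 4 genes with probe differences of opposite sign was 3, and 3 without any one array, but 1 with normexp background correction. Over all probes 9873 were called, 4872 higher and 5001 lower, in 63 genes other than the members in opposite directions, and of the partner genes 26 were higher and 7 lower. With normexp 8864 probes were lower, 127 genes had opposite calls and 16 partner genes were lower. With spike-in scaling 12873 probes were higher and 490 lower, 15 genes had opposite calls, and 52 partner genes were higher and 0 lower. With no scaling these were 13388, 732, 30, 53 and 0. With no filter on dim probes 17912 probes were called, 12855 of them lower, and 104 genes had opposite calls. Higher calls made up 49.3% of calls, against 33.4% with normexp, 58.6% with quantile normalization, 58.7% in the deposited table, 96.3% with spike-in scaling, 94.8% with no scaling and 28.2% with no filter. The methods' t-test, at 2-fold and the unadjusted threshold of 0.05, called 2358 probes, 670 higher and 1688 lower, 4 genes in opposite directions, and 1 partner gene higher and 0 lower. After Benjamini-Hochberg it called 2242, 661 and 1581 probes, 4 genes, and 1 and 0 partner genes. Opposite calls of at least 2-fold each were made in 4 genes. Without 1 array, 8578 to 11749 probes were called (4235 to 5847 higher, 4343 to 5902 lower), 45 to 82 genes had opposite calls, and 18 to 27 partner genes were higher and 5 to 8 lower, with the highest number of called probes without control replicate 3.

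The difference of 0.08 in the 5′ minus 3′ index was -0.11 with normexp (exact permutation p = 0.0498) and -0.017 with no filter (p = 0.76), but 0.22 with quantile normalization and 0.22 in the deposited table (p = 0.0022 each), 0.087 over probes well above background on all 12 arrays (p = 0.048) and 0.10 when ordered by start within 1 accession, an order added after the data were seen (p = 0.039). Without 1 array it was 0.056 to 0.097, and it passed without CUS replicate 5 (exact permutation p = 0.013) and without control replicate 4 (p = 0.043). Without scaling between arrays the correlation of the probes passed for Sos2 in control (r = 0.90, exact permutation, adjusted p = 0.046) and for Rtn4 in CUS (r = 0.96, adjusted p = 0.046).

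Reversed values of single probes were, with normexp, -0.34 for Uvrag and -0.22 for Wdr35 upstream, -0.015 for Vps16, -0.029 for Atg12, -0.37 for Gab1 and -0.15 for the brighter Rubcn probe. With spike-in scaling they were 0.46 for Sos2 downstream and 0.00182 for Rtn2, and with no scaling 0.41 for Sos2 downstream. Where no construction of the setting shows it, the cause was not tested. The replicate numbers give the position on a slide and do not pair rats, and same-numbered arrays deviated with correlations of -0.19 to 0.43, over 0.1 in 4 of 6. With the replicate block 10333 probes were called and 69 genes had opposite calls, and of the called genes that the naming rule gives only Rubcn lost a call. Low signal over background limits the upstream probes of Uvrag and Wdr35.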
